A study of Mus musculus with 10 samples.

Results

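Malat1, Gm20417 and Neat1 are 3 of the 25965 rows of a gene expression table of male mouse embryonic stem cells (mESCs). They were chosen by name, after Malat1 had been seen at a higher level in cells grown on gelatin. Malat1, and Gm20417, whose span lies inside it, are therefore described without a test in every comparison. The choice rested on Malat1, so Neat1 was tested. Neat1 was chosen together with Malat1 and with earlier results of these data known, so its p-values are no independent support. The label calls these RNAs nuclear, but RNA was not separated by compartment and their location was not measured.

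Libraries came from 2 independent C57BL/6 mESC lines, derived by the study's own method and divided at passage 0 (p0). The cells were then kept in 2i/LIF medium under both methods for 10 or 20 passages (p10, p20). This medium holds a pair of kinase inhibitors and leukemia inhibitory factor (LIF), and keeps mESCs naive. Under Keniry2022 (New or Off in the labels) cells grew in suspension, were passaged daily and were kept denser in more medium. Under Mulas2019 (Old or On) cells grew attached to gelatin and were passaged every other day. With 2 libraries in each of the 5 groups, 1 from each line, p0 and Keniry2022 share a culture method, and attachment, density, medium volume and days in culture all differ between the methods at equal passage. The paper reports that a line lost its Y chromosome during derivation, before the culture methods were compared. Reads of 4 Y-linked genes were 132 in p0 replicate 1 and 8140 in p0 replicate 2. At p20 Mulas2019 they were 13 and 4578, and at p20 Keniry2022 6659 and 48. Each group thus holds a library with few Y-linked reads, and the part of this loss in the results was not tested. Library totals lay between 24053996 and 30236823 reads. The 2 p0 libraries differed most, with an SD of 0.611 for their log2 difference over features against 0.23 to 0.265 in the other groups. The summed level of 8 mESC markers was 4160 to 4820 RPM (reads scaled to a common library total) in every library, 6 fibroblast or feeder markers summed to at most 3.24 and 6 primitive endoderm markers to at most 9.74. Trophectoderm markers (5 genes) summed to 89.3 to 120 under Mulas2019 and 74.7 to 92.4 under Keniry2022, and neural markers (4 genes) to 104 to 121 and 170 to 190. Early mesoderm markers (4 genes) summed to 13.6 and 13.8 RPM at p20 Mulas2019, 9.41 and 11.5 at p10 Mulas2019 and 7.57 to 9.67 in the other 6 libraries. The p20 Mulas2019 libraries were thus highest, as for Malat1 and Neat1. Those of p10 Mulas2019 overlapped the other 6, which they did not for these RNAs. The part of these markers in the results was not tested.

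Malat1 is an abundant long noncoding RNA that accumulates in nuclear speckles, the bodies that hold SR splicing factors. Neat1 is transcribed from the neighbouring gene, and its long form is the scaffold of paraspeckles, bodies built with the proteins Sfpq, Nono and Pspc1. Both RNAs end in an unusual way. RNase P cuts the transcript at a small tRNA-like RNA, RNase Z trims that small RNA, and the new 3′ end of the long RNA is protected by a triple helix in which U-rich motifs bind an A-rich tract in place of a poly(A) tail made by polyadenylation. Neat1 also has a short form with an ordinary poly(A) tail, which shares the 5′ part of the long form.

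All 3 rows lie on chromosome 19 in the mm10 build. Malat1 covers chr19:5795690-5802671 on the minus strand and Neat1 chr19:5824708-5845478 on the minus strand, with 22036 bases between them, so Neat1 lies upstream of Malat1. Gm20417 covers chr19:5797562-5798549 on the plus strand, 988 bases that lie wholly within Malat1. In the annotation release used here (GENCODE vM21) Malat1 and Neat1 are noncoding genes, and Gm20417 was not matched by name. The exon lengths recovered from the values were 6982 bases for Malat1 and 20771 bases for Neat1, each the whole span of the gene. The recovered length of Gm20417 was 425 bases, with 1 other length possible. The strand setting of the counting is not given in the sources used here, so reads of Malat1 and Gm20417 cannot be told apart.

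The sequences shown are the parts of both genes that make these 3′ ends, because the way the RNA ends bears on how it is captured for a library. They are GENCODE transcripts on GRCm38, read from 5′ to 3′ on the minus strand, from chr19:5795982-5796091 for Malat1, the mascRNA that follows it from chr19:5795924-5795981 (RefSeq coordinates), chr19:5824708-5824817 for Neat1, and Gm27702, the small RNA next to it, from chr19:5824652-5824707. Capitals mark the runs of T joined by C or GC and the terminal A-rich tract.
Malat1 3′ region: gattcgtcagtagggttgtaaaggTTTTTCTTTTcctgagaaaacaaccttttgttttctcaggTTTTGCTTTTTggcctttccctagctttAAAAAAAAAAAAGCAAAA
Neat1 3′ region: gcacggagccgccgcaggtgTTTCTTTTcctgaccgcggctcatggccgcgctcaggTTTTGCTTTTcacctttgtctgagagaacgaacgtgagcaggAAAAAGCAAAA
mascRNA: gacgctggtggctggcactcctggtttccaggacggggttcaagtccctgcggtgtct
Gm27702: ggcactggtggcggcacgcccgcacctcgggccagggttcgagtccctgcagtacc
Both long RNAs carry the pair of T-rich runs and end in A bases, GC and 4 more A bases. The tract of Malat1 holds 12 A bases in a row, the longest run in its transcript. That of Neat1 holds 5, and the longest run anywhere in the long Neat1 transcript is 7. The small RNAs aligned over 53 bases with 39 identical and 1 gap. The study names a TruSeq RNA sample preparation kit, and whether RNA was selected by poly(A) or by another way is not given in the sources used here.

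Malat1 was lowest in suspension culture and highest after 20 passages on gelatin. Values are log2 RPKM, the log2 of reads scaled by exon length and by the total of the library, so that levels of different genes can be compared. At p0 Malat1 was at 3.63 in replicate 1 and 3.15 in replicate 2. Under Keniry2022 it was at 3.29 and 3.15 at p10 and at 2.76 and 2.91 at p20. Under Mulas2019 it was at 3.85 and 4.37 at p10 and at 5.24 and 5.13 at p20. All 4 Mulas2019 libraries lay above the other 6. The group means ran from p20 Mulas2019 (5.18 ± 0.076, SD, n = 2) through p10 Mulas2019 (4.11 ± 0.368), p0 (3.39 ± 0.34) and p10 Keniry2022 (3.22 ± 0.097) to p20 Keniry2022 (2.84 ± 0.109). The libraries of p0 and p10 Keniry2022 overlapped, and no other neighbours in that order did.

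In reads, Malat1 had 1325 in p20 Keniry2022 replicate 1, the fewest, and 7289 in p20 Mulas2019 replicate 1, the most. The 95% Poisson intervals were 1254 to 1399 and 7122 to 7459 reads, and cover counting error only. Malat1 is often among the most abundant RNAs of a cell, but here it was above 61.0% of the features with at least 1 read in p20 Keniry2022 replicate 1 and above 91.1% of them in p20 Mulas2019 replicate 1, where it ranked 1572 of 17659. In bulk samples, a change in the level per cell and a change in the share of cells that make the RNA cannot be told apart.

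Gm20417 followed Malat1 at a lower level. It was at 2.40 and 2.61 log2 RPKM at p0, at 2.66 and 2.57 at p10 Keniry2022 and at 2.26 and 2.42 at p20 Keniry2022. Under Mulas2019 it was at 3.60 and 3.89 at p10 and at 4.80 and 4.78 at p20. The Mulas2019 libraries again lay above all others, and the p0 libraries overlapped those of p10 and p20 Keniry2022. These levels rest on few reads, 54 (95% interval 40 to 71) in p0 replicate 1 and 328 (293 to 366) in p20 Mulas2019 replicate 1. Of the reads of Malat1 and Gm20417 together, Gm20417 held 2.53% in p0 replicate 1 (exact binomial 95% interval 1.91 to 3.29%) and 3.78 to 4.88% in the other 9 libraries. Its recovered exon length is 6.09% of that of Malat1.

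Neat1 stayed between 0.07 and 0.24 log2 RPKM in suspension culture and was highest at p20 on gelatin. It was at 0.21 and 0.07 log2 RPKM at p0, at 0.12 and 0.24 at p10 Keniry2022 and at 0.21 and 0.10 at p20 Keniry2022. Under Mulas2019 it was at 0.50 and 0.48 at p10 and at 1.57 and 1.76 at p20. The 3 groups of suspension culture overlapped, p10 Mulas2019 lay above them, and p20 Mulas2019 lay above p10 Mulas2019. The means were 1.66 ± 0.13 (SD, n = 2) at p20 Mulas2019, 0.49 ± 0.0103 at p10 Mulas2019, and 0.14 to 0.18 in the other groups. Reads ran from 576 in p0 replicate 1 to 1925 in p20 Mulas2019 replicate 2. Neat1 was 2.55 to 3.88 log2 RPKM below Malat1 in every library. The row covers the whole long form, and reads of the short and long forms cannot be told apart in it.

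**Figure D1:**
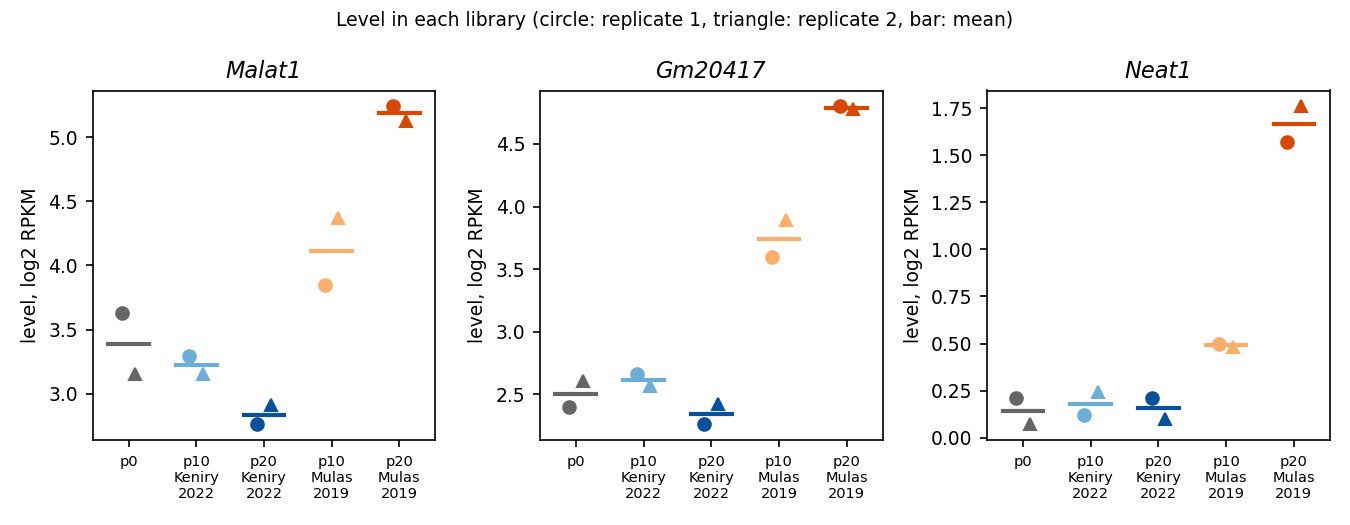
Level of Malat1, Gm20417 and Neat1 in each of the 10 libraries, in log2 RPKM on the vertical axis, by group on the horizontal axis; circles are replicate 1, triangles replicate 2 and bars the group mean. The p20 Mulas2019 libraries are the highest in each panel, at 5.24 and 5.13 for Malat1 and at 1.57 and 1.76 for Neat1, and the vertical axes do not start at 0 RPKM.

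The methods were first compared with p10 and p20 pooled, which gives 4 libraries each. The mean of Malat1 was 3.03 ± 0.237 log2 RPKM in suspension (SD, n = 4) and 4.65 ± 0.658 on gelatin, which differ by 1.62 (SE 0.271) or 3.07-fold. Gm20417 was at 2.48 ± 0.176 and 4.27 ± 0.616, a difference of 1.79 (SE 0.249). Neat1 was at 0.17 ± 0.0684 and 1.08 ± 0.681, a difference of 0.91 (SE 0.275) or 1.88-fold, with an adjusted p of 0.0187 (limma, two-sided, Benjamini-Hochberg over 11654 features). In this comparison 51.5% of all features tested passed the threshold of 0.05, 25.5% higher and 25.9% lower under Mulas2019, so a call in this comparison is common to about every other feature. Under Mulas2019 the p10 and p20 libraries of each RNA lay apart and did not overlap. Without p20 Mulas2019 replicate 1 the difference was 0.75 and the adjusted p 0.052, so the call of Neat1 was lost.

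At p10, the difference between methods was 0.89 (SE 0.201) for Malat1, 1.13 (SE 0.124) for Gm20417 and 0.31 (SE 0.143) for Neat1 on the log2 scale. Neat1 did not pass, with an adjusted p of 0.206 in limma, where 8.53% of 11561 features did (4.77% higher and 3.76% lower under Mulas2019). At p20, the differences were 2.35 (SE 0.201, 5.08-fold) for Malat1, 2.45 (SE 0.124, 5.47-fold) for Gm20417 and 1.51 (SE 0.143, 2.85-fold) for Neat1. Neat1 passed at p20 with an adjusted p of 0.00837 in limma, where 2.15% of features did (1.54% higher and 0.614% lower). These values come from a model of all 10 libraries, in which the spread between the p0 libraries enters the error of every feature. In a model of the 8 p10 and p20 libraries 48.3% of features passed at p10 and 36.7% at p20, and the adjusted p of Neat1 was 0.0711 and 0.000437. In the model of all 10 libraries, leaving out any p20 library gave Neat1 an adjusted p of 0.0687 to 0.127 at p20, with differences of 1.42 to 1.60: 1.57 without Keniry2022 replicate 1, 1.45 without Keniry2022 replicate 2, 1.60 without Mulas2019 replicate 1 and 1.42 without Mulas2019 replicate 2.

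Within Mulas2019, Malat1 was 1.08 higher at p20 than at p10 (log2 scale, SE 0.201), Gm20417 1.05 (SE 0.124) and Neat1 1.17 (SE 0.143), or 2.11-, 2.07- and 2.25-fold. Neat1 did not pass in the model of 10 libraries (adjusted p 0.143, limma), where 0 of 11561 features did (0%) and 772 had an unadjusted p below 0.05. In the model of 8 libraries it passed (adjusted p 0.0125), where 288 features or 2.47% did. Leaving out either p0 library alone also gave Neat1 an adjusted p below 0.05. Within Keniry2022, the p20 libraries were lower than the p10 libraries by 0.38 (Malat1), 0.28 (Gm20417) and 0.02 (Neat1), and Neat1 did not pass in either model (adjusted p 1.0 and 0.955, limma). In that comparison limma called 0 features (0%) with 10 libraries, 289 having an unadjusted p below 0.05, and 4 features (0.0343%) with 8.

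The difference between methods was larger at p20 than at p10 by 1.46 (SE 0.285) for Malat1, 1.33 (SE 0.176) for Gm20417 and 1.20 (SE 0.202) for Neat1 on the log2 scale. As a test of the method effect between passages, Neat1 did not pass in limma over 11561 features (adjusted p 1.0), where 0% passed and 405 had an unadjusted p below 0.05. With 8 libraries its adjusted p was 0.069, again with 0% passing (1836 with an unadjusted p below 0.05). Among the alternatives tried, only library quality weights brought Neat1 below the threshold (adjusted p 0.0353).

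**Figure D2:**
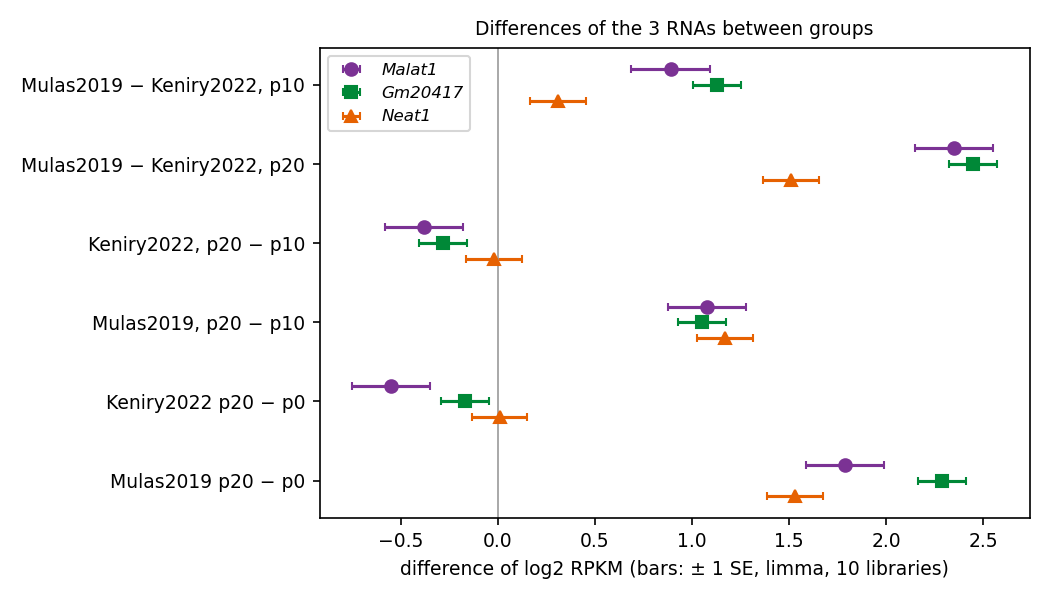
Differences of log2 RPKM between groups on the horizontal axis for Malat1 (circles), Gm20417 (squares) and Neat1 (triangles), with bars of 1 SE from limma on 10 libraries. The rows of Mulas2019 against Keniry2022 show 2.35 for Malat1 and 1.51 for Neat1 at p20 against 0.89 and 0.31 at p10, while the Keniry2022 rows lie near or below 0.

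The p0 cells give the level before the methods parted. At p20 Mulas2019, Malat1 was 1.79 above p0 (SE 0.201), Gm20417 2.29 (SE 0.124) and Neat1 1.53 (SE 0.143), on the log2 scale. Neat1 passed with an adjusted p of 0.00491 in limma, where 29.3% of features did, and lost this call without p20 Mulas2019 replicate 1 (1.62, adjusted p 0.0666), without p20 Mulas2019 replicate 2 (1.43, adjusted p 0.058) and with library quality weights (adjusted p 0.13). At p10 Mulas2019 the differences were 0.72, 1.24 and 0.35, and Neat1 did not pass (adjusted p 0.0873, limma) where 33.0% of features did. At p10 Keniry2022 they were -0.17, 0.11 and 0.04, and at p20 Keniry2022 -0.55, -0.17 and 0.01, with 0.199% of features called in each. Neat1 had an adjusted p of 0.861 and 0.948 there (limma). The p0 value of Malat1 depends on the library, with 3.63 in replicate 1 and 3.15 in replicate 2, and without p0 replicate 1 its p10 Keniry2022 difference was 0.07 and its p20 Keniry2022 difference -0.31. Without p0 replicate 2 the p10 Keniry2022 difference was -0.41. Its p10 Mulas2019 difference ran from 0.46 to 0.98 when 1 library was left out, lowest without p10 Mulas2019 replicate 2. The values of Gm20417 ran from 0.01 to 0.21 at p10 Keniry2022 and from -0.27 to -0.06 at p20 Keniry2022. All comparisons with p0 share its 2 libraries. The p20 Keniry2022 and p10 Mulas2019 libraries were matched in days of culture, and there Malat1 was at 2.84 and 4.11, Gm20417 at 2.34 and 3.74, and Neat1 at 0.15 and 0.49 log2 RPKM, with no test.

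Of 14 other features described within 100 kb of the stretch from Malat1 to Neat1, 9 passed the filter on low values. At p20 these 9 differed less between the methods than the 3 RNAs did, by the values. Pooled over passages, 3 of these were called higher under Mulas2019 and 2 lower, against 25.5% and 25.9% of all features. Their median difference was 0.04 against 0.0 for all features. At p20 limma called none of the 9 with 10 libraries and 1 with 8 (Cdc42ep2, higher), against 2.15% and 36.7% of all features. The p20 differences ran from -0.28 (Gm9783) to 0.27 (Cdc42ep2). Frmd8, on the far side of Neat1 from Malat1, differed by 0.04 when pooled (adjusted p 0.448, limma). Gm9783, whose span overlaps that of Frmd8 on the other strand, differed by -0.20 (adjusted p 0.0937). It had only 18 to 26 reads per library, and without a strand setting these cannot be told from reads of Frmd8. The called genes were Cdc42ep2, an effector of the GTPase Cdc42, at 0.62 (adjusted p 0.00276), Pola2, a subunit of DNA polymerase alpha, at 0.22, Dpf2, a subunit of BAF chromatin remodellers, at 0.17, Gm16538 at -0.24 and Sssca1 at -0.20. The spans of Gm16538, Fam89b and Sssca1 overlap, so their reads are uncertain. Fam89b (0.11) and Map3k11 (-0.01) were not called. At p10, Cdc42ep2 was called with 10 libraries (0.98, adjusted p 0.0209, limma) and no other of the 9 was, against 8.53% of all features. With 8 libraries 4 were called higher and 2 lower, against 48.3% of all features called. Cdc42ep2 differed by 0.27 at p20, the reverse of the order of Malat1 (0.89 and 2.35). The other 5 features had levels too low for the filter and were not tested. One of them, Ltbp3, a protein that binds latent TGF-beta, had 36 to 125 reads per library and was named after its values were seen. It was at -1.77 and -1.94 log2 RPKM at p10 Keniry2022, -2.01 and -1.80 at p20 Keniry2022, -0.01 and -0.47 at p10 Mulas2019 and -0.36 and -0.25 at p20 Mulas2019. All 4 Mulas2019 libraries lay above the Keniry2022 ones, with mean differences of 1.62 at p10 and 1.60 at p20, the latter above that of Neat1 (1.51). The other 4 differed by 0.22 to 1.98 at p10 and 0.23 to 0.79 at p20 on 1 to 70 reads. Over all 411 tested features of chromosome 19 the median difference was 0.0 when pooled.

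**Figure D3:**
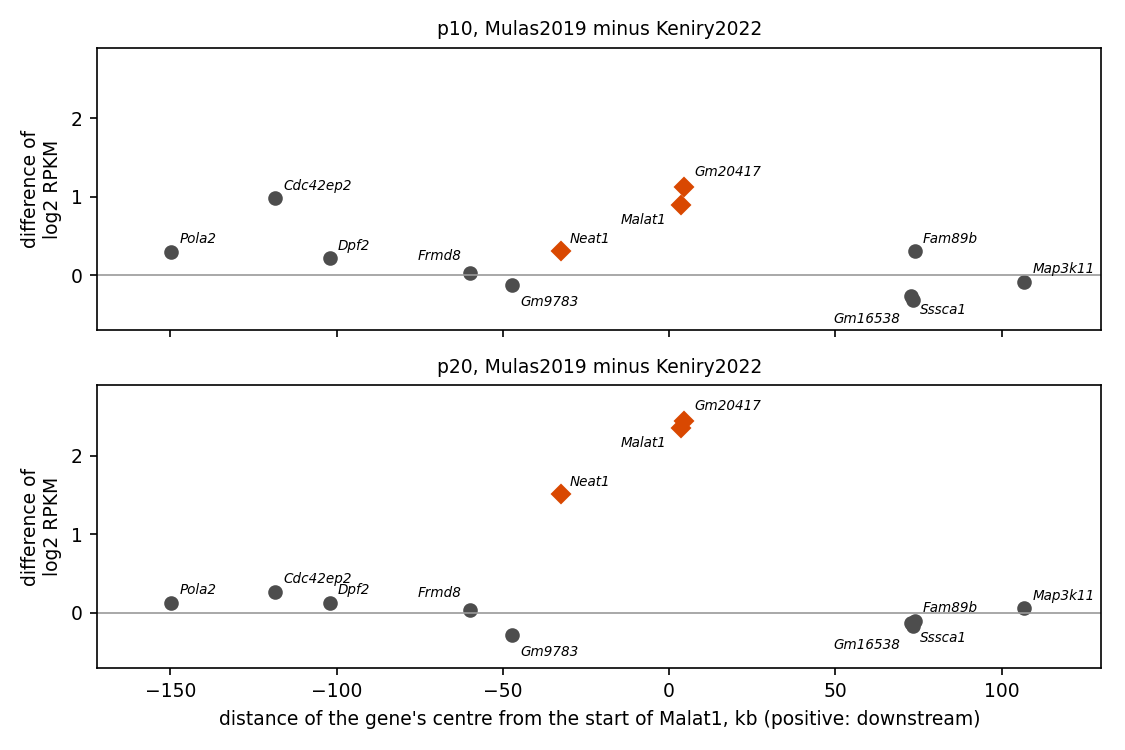
Difference of log2 RPKM between Mulas2019 and Keniry2022 (vertical axis) for Malat1, Gm20417, Neat1 and 9 tested neighbours against the distance of their centre from the start of Malat1 in kb (horizontal axis), at p10 above and p20 below; diamonds are Malat1, Gm20417 and Neat1, circles the neighbours. At p20 the diamonds stand at 1.51 to 2.45 and the 9 neighbours between -0.28 and 0.27.

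Paraspeckle proteins assemble on long Neat1, and the mRNA levels of their genes did not move together. Of 25 listed and tested, 8 were called higher and 7 lower under Mulas2019 when pooled, with a median log2 difference of 0.05. Of all features 25.5% were called higher and 25.9% lower, also a near even split. Of the genes of the core proteins, Pspc1 was lower by 0.36 (SE 0.0443, adjusted p 0.000176, limma) and Nono by 0.19 (adjusted p 0.00608), and Sfpq differed by -0.06 (adjusted p 0.212). Hnrnpr, an RNA-binding protein, was lower by 0.30 and Rbm7, which brings nuclear RNA to the exosome, by 0.33. At p20, when Neat1 was at its highest, 0 of the 25 were called in limma with 10 libraries, against 2.15% of all features. With 8 libraries 6 were called higher and 5 lower, against 36.7% of all features called.

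The genes for proteins of nuclear speckles, where Malat1 resides, were also split in mRNA level. Of 31 tested, 11 were called higher and 10 lower under Mulas2019, with a median of 0.02. All features were split in a like way, with 25.5% called higher and 25.9% lower. Srrm2 and Son, which hold speckles together, were higher by 0.43 (SE 0.0438, adjusted p 8.5e-05) and 0.12 (adjusted p 0.0127). The splicing factors Srsf7, Srsf3, Srsf1 and Srsf2 were lower, with differences of -0.33, -0.30, -0.24 and -0.12, and Hnrnpc, which binds nascent RNA, with -0.25. Other SR proteins of the list went the other way, with Srsf5, Srsf11 and Srsf4 called higher by 0.33, 0.21 and 0.18. Srsf6 (-0.08) and Srsf9 (-0.03) were not called. Under quantile normalisation Srsf2 turned, with 0.06 when pooled. At p10 with 10 libraries, 0 were called higher and 2 lower, Srsf1 (-0.32) among them, against 8.53% of all features called. With 8 libraries 11 were called higher and 11 lower, against 48.3% of all features called.

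The genes listed for 3′ end processing of Malat1 and Neat1 had lower mRNA levels under Mulas2019 than under Keniry2022. All 13 tested (of 14 listed) were called lower under Mulas2019 when pooled, with a median difference of -0.27, against 25.9% of all features. The list holds mostly subunits of RNase P, which also cuts tRNA precursors. Rpp21 was lower by 0.44 (SE 0.0653, adjusted p 0.000471), Rpp30 by 0.36 (adjusted p 0.000202) and Pop4 by 0.36 (adjusted p 0.000192). Elac2, the RNase Z, was lower by 0.16, and Mettl16, an RNA methyltransferase known to bind the triple helix of MALAT1, by 0.15. The medians were -0.31 at p10 and -0.27 at p20. With 10 libraries 0 of 13 were called at either passage, against 8.53% and 2.15% of all features. With 8 libraries 11 and 10 were called lower, against 48.3% and 36.7% of all features called. No test compared the passages. At p20 Mulas2019 against p0, Rpp21, Rpp30 and Pop4 differed by -1.16 (SE 0.348), -0.83 and -0.52 and were called, where 29.3% of features were. Elac2 and Mettl16 differed by 0.16 and 0.14 and were not called. At p20 Keniry2022, where Malat1 was lowest, these differences were -0.80, -0.49, -0.19, 0.27 and 0.35. None of them was called (adjusted p 0.14 to 0.367, limma), where 0.199% of features were. The sizes depend on the p0 library. In p0 replicates 1 and 2, Rpp21 was at 5.49 and 4.17 log2 RPKM, Rpp30 at 5.54 and 4.9 and Pop4 at 6.08 and 5.62.

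Of 28 tested genes of m6A methylation and nuclear RNA decay, 4 were called higher and 13 lower under Mulas2019, with a median of -0.07, against 25.5% of all features called higher and 25.9% lower. Exosc5 and Exosc1, subunits of the RNA exosome, were lower by 0.57 (SE 0.0447, adjusted p 3.6e-05) and 0.30 (adjusted p 0.000249). Skiv2l2, the helicase that feeds the nuclear exosome, was lower by 0.27 (adjusted p 0.000166). None of the 28 was called at p10 or p20 with 10 libraries, against 8.53% and 2.15% of all features. With 8 libraries 11 were called lower at each and 3 and 2 higher, against 48.3% and 36.7% of all features called.

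Other named long noncoding RNAs could be compared only in part. Of 25 listed, 8 had a row and 3 passed the filter, and all 3 were called higher under Mulas2019 when pooled, where 25.5% of all features were. One of them, H19, passed the filter through the group in which it was higher, so the count is in part set by the filter. The mean of Tug1 was 4.28 ± 0.0706 log2 RPKM in suspension and 4.65 ± 0.104 on gelatin (SD, n = 4), which differ by 0.37 (SE 0.0572, adjusted p 0.000539, limma). The difference was 0.34 at p10 and 0.40 at p20, neither called with 10 libraries and both called with 8 (limma). 1700020I14Rik was higher by 0.25 and H19, an imprinted RNA, by 0.77 (SE 0.186, adjusted p 0.00648). H19 is at the edge of detection, with a mean of -0.20 log2 RPKM under Keniry2022 and 0.57 under Mulas2019.

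Neat1 is a known target of p53 and of hypoxia-inducible factors, so genes of both responses were set beside it. Of 15 tested p53 targets, 4 were called higher and 4 lower when pooled, with a median of 0.0. These counts are close to the shares of all features, 25.5% called higher and 25.9% lower. With 8 libraries 4 were called higher and 6 lower at p10 (median 0.02), where 48.3% of all features were called. At p20 6 were called higher and 1 lower (median 0.13), where 36.7% of all features were called. With 10 libraries 1 was called lower at p10 and 0 were called at p20, against 8.53% and 2.15% of all features. Bax, which promotes apoptosis, was lower by 0.34, while Zmat3 and Sesn2 were higher by 0.40 and 0.18. Of 15 tested hypoxia targets, 13 were called higher under Mulas2019 when pooled and 1 lower (Kdm3a, -0.15), with a median of 0.73, against 25.5% of all features called higher. Vegfa, the angiogenic growth factor, was higher by 1.18 (SE 0.0495), P4ha2, a collagen prolyl hydroxylase, by 1.49 and Ddit4, an inhibitor of mTORC1, by 1.11.

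The hypoxia targets and the 3 RNAs were ordered differently over the passages. The median of the hypoxia targets was 1.08 at p10, with 9 of 15 called higher, and 0.51 at p20, with 3 called. Of all features 4.77% and 1.54% were called higher there. With 8 libraries 13 and 11 were called higher, where 48.3% and 36.7% of all features were called in either direction. Neat1 differed by 0.31 and 1.51 and Malat1 by 0.89 and 2.35 at the same passages. Vegfa was about even, at 1.22 and 1.14. The difference between these orders was not tested.

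**Figure D4:**
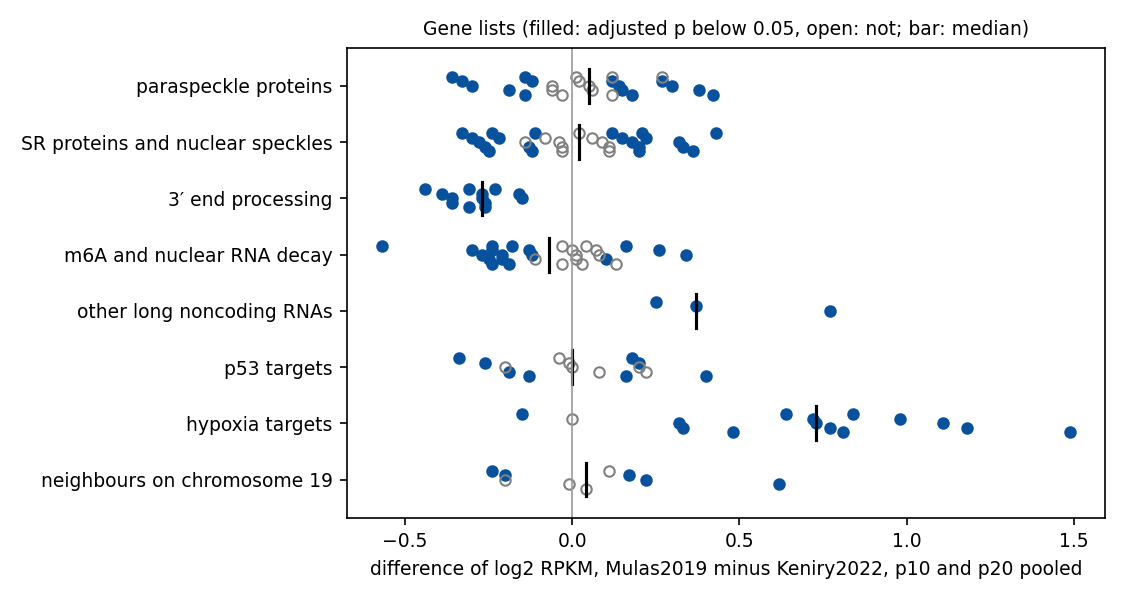
Difference of log2 RPKM between Mulas2019 and Keniry2022 with p10 and p20 pooled (horizontal axis) for each tested gene of the lists (vertical axis); filled points had an adjusted p below 0.05, open points not, and bars are medians. The 3′ end processing genes all lie left of 0 with a median of -0.27, and the hypoxia targets lie mostly right of 0 with a median of 0.73.

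The promoter of Malat1 is shown because core motifs of the hypoxia response can be looked for in it. It is the RefSeq stretch from 250 bases before the start of the gene to 50 after it, on GRCm38.p6, chr19:5802623-5802922, minus strand. Capitals mark the letters ACGTG, a core motif of hypoxia-inducible factors, and ATAAATA, which resembles a TATA box.
Malat1 promoter: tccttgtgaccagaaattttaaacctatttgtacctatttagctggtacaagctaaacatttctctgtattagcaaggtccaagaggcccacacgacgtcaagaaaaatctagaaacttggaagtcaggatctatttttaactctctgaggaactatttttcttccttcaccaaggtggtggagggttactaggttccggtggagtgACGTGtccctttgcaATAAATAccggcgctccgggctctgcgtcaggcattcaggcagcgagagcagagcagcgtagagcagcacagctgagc
A search on both strands for ACGTG, and for the variant of it that starts with GC in place of AC, gave 1 match, 43 bases before the start, and 43.8% of 27025 promoters of the same length hold at least 1. ATAAATA stood 28 bases before the start and was found on either strand in 5.75% of promoters. A match is a description of letters and no evidence of binding. Of the 3 RNAs, Malat1 was the 1 matched in the promoter table.

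The genes most like Malat1 over the 10 libraries were found among 6197 features with a mean of at least 3 log2 RPKM that do not overlap it or Neat1. By Pearson's r over 10 libraries, given as a description, they were Cpt1c (0.95), a member of the carnitine palmitoyltransferase family, Suv420h2 (0.95), a histone H4 methyltransferase, Tmem191c (0.95), the SR protein Srsf5 (0.95) and the cyclin Ccnl2 (0.94). Malat1 itself had an r of 0.97 with Gm20417 and 0.92 with Neat1. Srsf5 was at 5.16 to 5.42 log2 RPKM under Keniry2022, 5.51 and 5.48 at p10 Mulas2019 and 5.71 and 5.72 at p20 Mulas2019. Its difference at p20 was 0.53, against 2.35 for Malat1.

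The genes most like Neat1 were Lepre1 (0.96), a collagen prolyl hydroxylase, Ccnl2 (0.95), D4Wsu53e (0.95), Tmem191c (0.93) and 2810403A07Rik (0.91). Ccnl2 and Tmem191c stood on both lists. Ccnl2 was at 3.85 to 4.03 log2 RPKM under Keniry2022, 4.17 and 4.12 at p10 Mulas2019 and 4.46 and 4.50 at p20 Mulas2019. Lepre1 differed by only 0.17 at p20, from 3.81 and 3.85 to 4.01 and 4.0, so a high r here does not mean a like size of change. By Spearman's rho, 1 of the 5 genes named for Malat1 and 0 of those for Neat1 stayed among the top 5, and over the 8 p10 and p20 libraries 1 of each, so the order among alike genes is not stable. The 2 libraries of a group share their culture method and passage, so 10 points in 5 groups hold few independent ones.

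**Figure D5:**
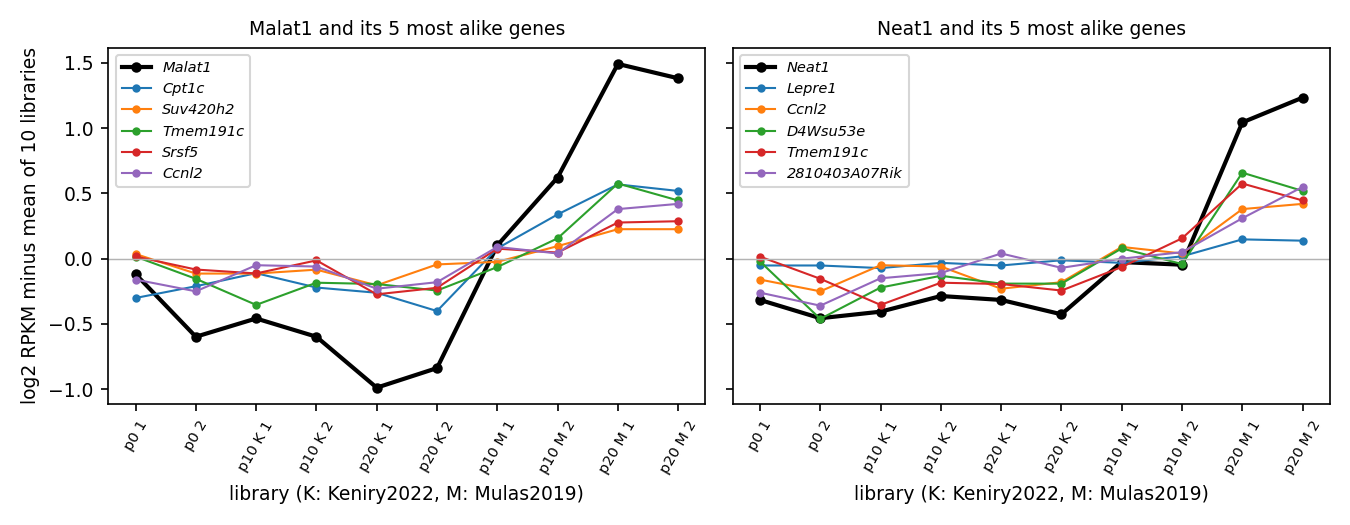
Level minus the gene's mean over the 10 libraries, in log2 RPKM on the vertical axis, by library on the horizontal axis, for Malat1 (left, black), Neat1 (right, black) and their 5 most alike genes (colours). Srsf5 and Ccnl2 rise at p20 Mulas2019 with differences of 0.53 and 0.60 from Keniry2022, against 2.35 for Malat1 and 1.51 for Neat1.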

How the data were processed

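RNA-seq was performed on 10 libraries of male mESCs (5 groups of 2). The study describes trimming, alignment to mm10 with HISAT2 and quantification in SeqMonk, whereas TopHat2 2.0.12 and bcl2fastq are named in the submitters' processing notes, and which aligner was used is not settled here. The authors deposited 1 table of log2 values, named as log CPM. The deposited values are log2 RPKM, since features without reads (entered as 0.9 reads) sit at a value set by their length. Totals, lengths and whole reads were worked out from these floors (99.9973% of values within 0.1 reads), but lengths of 15662 features came from a search for whole reads, which is no check of them. No column was left unused.

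Tests used limma 3.58.1 in R 4.3.3 (moderated, intensity trend, two-sided, Benjamini-Hochberg over all features tested, threshold 0.05) with no pseudocount, on features whose log2 value exceeded 0 in 50% or more of the fitted libraries. All 3 RNAs exceeded 0 in all 10 libraries. The pooled comparison had 4 libraries per method; the others came from 1 model of 5 groups. The authors used edgeR and voom. The fits were tested on simulated data. Libraries of a group are separate lines, so in the model of 5 groups p-values measure the spread between 2 lines, shared over the groups. In the pooled comparison the spread also holds the change from p10 to p20. Its 4 libraries per method are 2 lines at 2 passages and not 4 independent lines.

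Replicate numbers mark lines in the study. Differences between replicates correlated at r 0.171 to 0.63 over 11561 features between groups, except for p20 Keniry2022 (-0.118 to -0.698), whose reads of 4 Y-linked genes (6659 and 48) were also in the reverse order of the other groups. The numbers of that group may be crossed, so the main fits had no block.

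Named genes were the 3 RNAs, the 3 tested members of each list with the smallest unadjusted p when pooled, 9 further splicing, paraspeckle and processing genes fixed by name, every tested neighbour within 100 kb except 1 that is not reported here, and the 5 genes most like Malat1 and Neat1. Kdm3a, Srsf4, Srsf6, Srsf9 and Srsf11 were named after their values were seen. The members, lists and this rule were chosen with earlier results of these data known. Alternatives are described in the closing section.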

Additional observations from a re-analysis of the deposited data

How the results depend on the processing

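Malat1 and Gm20417 kept their direction when pooled, at p10 and at p20 under all alternatives run, with ranges over these of 1.42 to 1.88, 0.63 to 1.15 and 2.20 to 2.42 for Malat1 and 1.61 to 2.01, 0.98 to 1.27 and 2.24 to 2.53 for Gm20417 (log2 scale). Leaving out 1 library gave 1.42 to 1.88 and 0.63 to 1.15 for Malat1 when pooled and at p10, and 1.61 to 2.01 and 0.98 to 1.27 for Gm20417. A pseudocount of 1, which shrinks differences of low levels, gave Gm20417 1.63 when pooled and 2.24 at p20, and Neat1 0.58 when pooled, 0.17 at p10 and 0.98 at p20. For Neat1, leaving out 1 library gave 0.69 to 1.11 when pooled and 1.42 to 1.60 at p20. Quantile normalisation gave 0.72 when pooled (adjusted p 0.0516) and 0.16 at p10, and the pooled adjusted p ranged from 0.0022 to 0.052. Library quality weights gave Neat1 0.31 at p10 with an adjusted p of 0.0498, made the change of its method difference between passages pass (1.20, adjusted p 0.0353) and its rise from p10 to p20 under Mulas2019 (1.17). That rise also passed with 8 libraries (1.17) and with voom on the recovered reads (1.19). Leaving out 1 library gave the rise as 0.82 to 1.34 for Malat1, 0.91 to 1.19 for Gm20417 and 1.08 to 1.26 for Neat1, and the change between passages as 1.20 to 1.72, 1.18 to 1.47 and 1.11 to 1.29. Voom called Neat1 at p10 Mulas2019 against p0 (0.37, adjusted p 0.0356). The low differences of Neat1 changed sign: p20 against p10 under Keniry2022 gave -0.08 to 0.03 when 1 library was left out, p10 Keniry2022 against p0 -0.03 to 0.11, and p20 Keniry2022 against p0 -0.05 to 0.08, with -0.03 under median centring and -0.04 under quantile normalisation. Malat1 gave -0.41 to 0.07 at p10 Keniry2022 and -0.79 to -0.31 at p20 Keniry2022 against p0.

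With the replicate number as a block, limma called 5749 features when pooled, 714 at p10 and 145 at p20, and with the p20 Keniry2022 numbers crossed 156 at p20. The block changed no call of Neat1 (adjusted p 0.0278 pooled, 0.251 at p10, 0.0212 at p20). Against p0, Keniry2022 had 0 features at p10 and 1 at p20 with the block, and 0 and 0 with crossed numbers. Counts of calls also moved with the p0 libraries. The 5-group model called 2225 when pooled. The 8-library model called 5631 at p10, 4280 at p20, 4 between passages under Keniry2022 and 288 under Mulas2019. Quality weights called 5880, 4079, 40 and 512, and 72 for the change between passages, with 0 in all 4 comparisons with p0. The stricter filter (log2 above 2) called 608 at p10, 95 at p20, and 0 and 0 for Keniry2022 against p0, and it left Neat1 out. Without a filter 0 and 1 were called for Keniry2022 against p0 and 1 between its passages. Voom called 458 at p20, 0 and 0 for Keniry2022 against p0 and 1 between passages under Mulas2019. Leaving out 1 library gave 0 to 5524 at p10, 1 to 4171 at p20, 0 to 7395 and 0 to 7641 for Keniry2022 against p0, 11 to 8250 and 1 to 8175 for Mulas2019 against p0, and 0 to 3 and 0 to 287 between passages. Where this left 1 library in a group, it was assumed to vary like the others.

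Quantile normalisation turned Sfpq (0.09 pooled, 0.02 at p20), Srsf2 (0.06 pooled, 0.02 at p10, 0.10 at p20), Srsf1 at p20 (0.03) and Map3k11 at p20 (-0.03), and voom turned Map3k11 when pooled (0.03). Leaving out 1 library gave Map3k11 -0.04 to 0.03 pooled and -0.05 to 0.17 at p20, and at p10 Sfpq -0.02 to 0.05 and Frmd8 -0.01 to 0.08. Of the 5 most alike genes, 1 (Malat1) and 0 (Neat1) stayed by Spearman's rho and 1 and 1 over 8 libraries. The cause of these changes was not tested. Voom and the crossed block were chosen after seeing the data. The planned TMM and DESeq2 fits were not run, since the table holds log2 RPKM.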

Other observations

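Long noncoding RNAs as a class were set beside Malat1 and Neat1, with the classes of GENCODE vM21 and the 3 RNAs left out, a description added after the data were seen. Of 55 tested lincRNAs, 16 were called higher and 8 lower under Mulas2019 when pooled (29.1% higher), with a median difference of 0.11 on the log2 scale. Of 9849 protein-coding genes, 2597 were called higher and 2534 lower (26.4% higher), with a median of 0.01. At p20 the median was 0.18 over 53 lincRNAs and 0.01 over protein-coding genes, and at p10 -0.02 and 0.0, with 1 lincRNA called at each passage in limma. Antisense RNAs, whose reads cannot be told from those of the opposite gene without a strand setting, had 56 called higher and 42 lower of 252, with a median of 0.06. The filter can pass a feature of low level through the group in which it is higher, as with H19. Its part in these medians and the difference between classes were not tested.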
